A study of Mus musculus with 6 samples.

Results

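The clustered histone genes encode the bulk of the protein around which nuclear DNA is wound. They were taken here as every row of the count tables whose symbol starts with Hist1h, Hist2h, Hist3h or Hist4h, without the 1 row whose symbol carries the pseudogene suffix. This gave 69 genes of 48577: 6 linker histone H1 genes, 20 H2A, 18 H2B, 12 H3 and 13 H4 genes. Hist1h2aj and Hist1h2al, counted among the H2A genes, carry no pseudogene suffix but are pseudogenes in the GENCODE M21 annotation. By cluster, 56 carry the prefix Hist1, 10 the prefix Hist2, 2 the prefix Hist3 and 1 the prefix Hist4. No measured value entered the choice.

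RNA came from lung cells of C57BL/6 Miwi2-tdTomato mice, in which the red fluorescent protein tdTomato reports Piwil4, the gene for the Piwi protein MIWI2. All 6 libraries came from reporter mice. Cells without the leukocyte surface protein CD45 and with the epithelial surface protein EpCAM were sorted into a tdTomato-negative and a tdTomato-positive fraction, and 3 mice each gave 1 library of either fraction. The labels call both fractions multiciliated cells, while the gate they describe holds no ciliary marker. Animal age is not given in the sources used here.

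Most clustered histone genes are copied into RNA during S phase, when new DNA needs new nucleosomes. Their mRNAs are exceptional in that they end in a short conserved stem-loop in place of a poly(A) tail; the stem-loop is bound by SLBP, and the mRNAs are degraded when replication stops. A small subset can also be read through the stem-loop or spliced to a distant exon and then polyadenylated, and this form is known from cells that no longer divide. Multiciliated cells are such non-dividing cells of the airway lining.

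The stem-loop is shown first because it is the feature that sets these mRNAs apart. A stem arm GGNNCT, a loop TTTN and the other arm AGNNCC, without gaps and with N for any base, were searched on the sense strand of the GENCODE M21 transcripts (GRCm38). They were found in 89 of 55450 genes (0.161%), and in 44 of the 69 histone genes. Of the 7 histone genes that carried most reads, 5 had the match. In the lines that follow, capitals mark both arms of the stem and the lower-case letters between them the loop.
Hist1h1c: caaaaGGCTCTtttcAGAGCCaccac
Hist1h2be: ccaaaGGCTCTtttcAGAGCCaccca
Hist3h2a: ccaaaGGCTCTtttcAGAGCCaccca
Hist4h4: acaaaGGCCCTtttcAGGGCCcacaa
Hist1h4d: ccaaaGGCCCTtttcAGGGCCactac
Hist1h1t: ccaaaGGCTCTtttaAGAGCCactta
Hist1h2bb: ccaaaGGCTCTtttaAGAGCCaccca
The H1, H2A and H2B genes Hist1h1c, Hist1h2be and Hist3h2a shared the core that 26 of the 44 genes had, and the H4 genes Hist4h4 and Hist1h4d shared another, found in 7. Hist1h1t and Hist1h2bb, a testis-enriched H1 gene and an H2B gene with few reads here, had a core found in 6. No match was found in the annotated transcripts of Hist1h2bc and Hist2h2be.

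Counts in genes ranged from 5330584 to 6326395 per library, and 3 reads corresponded to 0.472 to 0.582 CPM (CPM gives a gene's reads relative to all counts in genes, scaled by TMM factors). That floor reflects counting alone, because amplified reads carry no molecular identifier and several can stem from 1 molecule. The tdTomato-positive library of mouse 1 lay far from the rest on principal component 1, at 75.1 against -34.2 to 8.13 for the others. Piwil4 and tdTomato followed the sort, with log2 fold changes of 1.36 ± 0.208 (SE; edgeR adjusted p = 0.012) for Piwil4, and with no tdTomato read in the negative against 16 to 37 reads in the positive libraries. Markers of the labelled cell type were present in both fractions, beside those of other cells: the 14 multiciliated cell markers in the files summed to 6453 to 6670 CPM in the negative fraction against 6537 to 6995 CPM in the positive fraction. None of the 13 tested was called. With the mouse as a block 3 were higher in the positive fraction, against 1.36% of all genes tested. Foxj1, the ciliary master regulator, was among the 3 (log2 fold change 1.06 without the block, edgeR adjusted p = 0.665, and 0.000129 with it). Alveolar type 2 markers reached 6711 to 8073 CPM in the negative and club cell markers 8649 to 21575 CPM in the positive fraction, so neither fraction held markers of multiciliated cells alone.

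Few reads were assigned to clustered histone genes. All 69 genes together had 2912 reads of 34121994, and 29 of them had none in any library. A count of 0 over the 6 libraries allows up to 0.0879 CPM of assigned reads (without TMM factors), which limits a gene's level only where its reads can be told from those of other genes. Another 18 had 1 to 3 reads in total. Reads in all 6 libraries were found for 11 genes. The share of histone genes with any read, 58.0%, was near that of all genes, 57.9%, while 10.1% of them against 27.1% of all genes passed the filter on low counts. Those 7 genes, Hist1h2bc, Hist1h1c, Hist1h2be, Hist2h2be, Hist4h4, Hist3h2a and Hist1h4d, held 90.5% of the histone reads.

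Hist1h2bc encodes an H2B protein and was the most abundant of the family (chromosome 13, 23684199 to 23692908, plus strand, GRCm38, a gene annotated with a spliced transcript). It was at 21.4, 30.2 and 17.8 CPM in mice 1, 2 and 3 of the negative fraction and at 25.0, 18.7 and 26.2 CPM in the positive ones. The fractions overlapped, and the positive library was the higher in 2 of 3 mice. Hist1h1c, which encodes the linker histone H1.2 (chromosome 13, 23738808 to 23740367), had 17.9, 23.1 and 19.2 CPM in the negative fraction against 12.9, 14.6 and 23.9 CPM in the positive fraction. Its positive values spread more widely than its negative ones and reached above them in mouse 3 alone. Hist1h2be, another H2B gene (chromosome 13, 23583670 to 23621124, minus strand), was at 15.2, 19.5 and 13.4 CPM in the negative fraction against 9.91, 17.9 and 12.01 CPM in the positive fraction. It was lower in the positive library of each mouse, and the fractions overlapped. Its annotated exons overlap those of Hist1h1e and the pseudogene Gm11398 over 11.2% of their length.

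Hist2h2be, an H2B gene of the smaller cluster on chromosome 3 (96221119 to 96223738), had 8.87, 9.75 and 7.37 CPM in the negative fraction against 10.2, 12.1 and 7.27 CPM in the positive fraction. Hist4h4, an H4 gene that lies alone on chromosome 6 (136801553 to 136804415), had 9.83, 4.20 and 2.52 CPM in the negative fraction against 6.21, 6.92 and 2.05 CPM in the positive fraction. Among the 7 genes Hist4h4 had the highest spread relative to its level, and both libraries of mouse 3 were the lowest of their fraction. Hist3h2a, an H2A gene on chromosome 11 (58954685 to 58956830), had 3.28, 4.78 and 4.07 CPM in the negative fraction against 3.86, 4.88 and 2.69 CPM in the positive fraction. Its exons overlap Trim17 and a predicted microRNA over 33.0% of their length, and without a stated strand setting reads there cannot be told apart. Hist1h4d, an H4 gene (chromosome 13, 23581598 to 23582735), had 1.35, 1.72 and 1.94 CPM in the negative fraction against 2.18, 2.36 and 3.00 CPM in the positive fraction, the 1 gene of the 7 whose fractions did not overlap. Over all genes tested, 17.3% did not overlap.

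**Figure D1:**
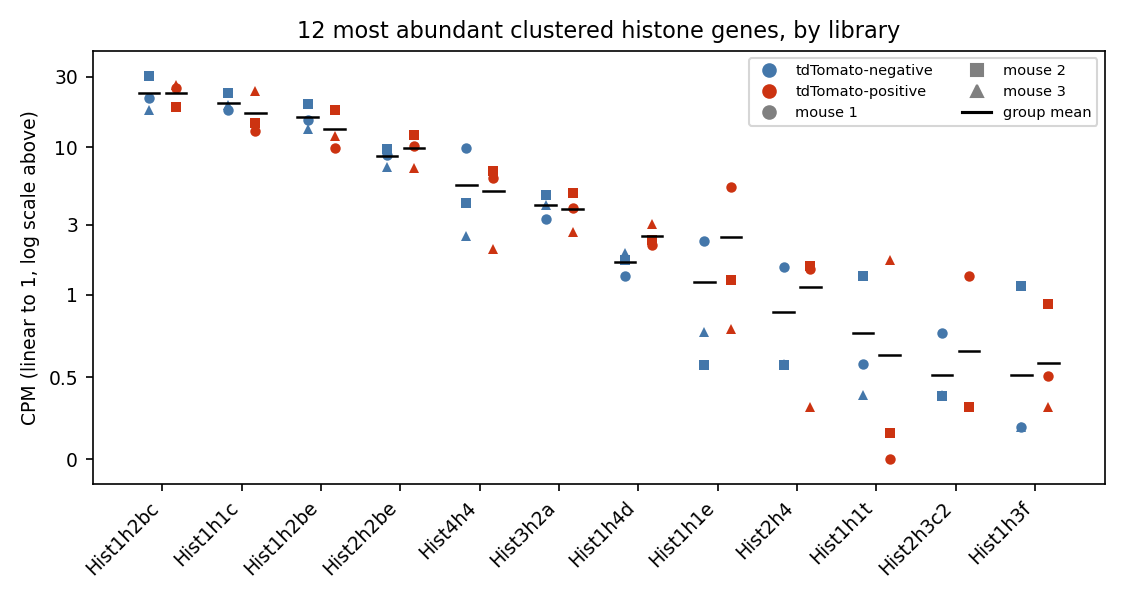
CPM (vertical axis, linear up to 1 and logarithmic above) of the 12 most abundant clustered histone genes in each library; blue marks tdTomato-negative and red tdTomato-positive libraries, the shape gives the mouse and bars are group means (n = 3). Blue and red points overlap for each gene but Hist1h4d, and the level falls from a mean of 23.2 CPM for Hist1h2bc to 2.09 CPM for Hist1h4d within the first 7 genes.

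Levels between genes were compared per length. Hist1h2bc was at 20.1 CPM per kilobase of annotated exon (range over the 6 libraries 15.4 to 26.1) and Hist1h1c at 11.9 (8.29 to 15.3), so the 2 ranges did not overlap. Hist2h2be at 3.54 (2.77 to 4.62) and Hist1h2be at 3.30 (2.23 to 4.39) could not be ordered against each other. The exons of Hist1h2be were those of 3 transcripts joined. Per kilobase of its longest transcript Hist1h2be was at 5.85 CPM (3.95 to 7.78), above the mean of Hist2h2be, while the ranges overlapped. The order of the 2 means thus depended on the length used, and the ranges do not compare the genes within a library. Hist4h4, Hist1h4d and Hist3h2a, at 1.85, 1.84 and 1.83 CPM per kilobase, could not be ordered against each other either. Full exon length was used even where exons overlap another gene, as over 33.0% of Hist3h2a. These lengths come from GENCODE M21, which may differ from the annotation used for counting.

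Between the fractions, none of the 7 tested histone genes was called by edgeR's quasi-likelihood test at an adjusted p under 0.05, where 0.622% of all 13175 genes tested were (0.0455% higher and 0.577% lower in the positive fraction). None had an unadjusted p under 0.05, and DESeq2 and limma-voom called none. With the mouse as a block the count was again 0, against 3.15% of all genes (1.36% higher and 1.79% lower). Log2 fold changes, positive over negative, ran from -0.27 for Hist1h2be to 0.59 for Hist1h4d, 3 above and 4 below 0; with library size as the only scaling, which moved the median of all genes by more than 0.1, all 7 were above 0. Their median was -0.09, beside 0.03 over all genes tested.

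The intervals show how large a difference could have gone unseen. For Hist1h2bc the log2 fold change was 0.01 with a 95% interval of -0.61 to 0.63 (edgeR adjusted p = 0.994). For Hist1h1c it was -0.23, between -0.90 and 0.44 (edgeR adjusted p = 0.825), for Hist1h2be between -0.99 and 0.45, and for Hist2h2be 0.19, between -0.59 and 0.97. These 4 intervals lay within a doubling or halving, a log2 value of 1 either way. Those of Hist4h4 (-1.46 to 1.21), Hist3h2a (-1.16 to 0.99) and Hist1h4d (-0.67 to 1.84) did not. Hist1h4d was higher in the positive library in 3 of 3 mice, as were 19.8% of all genes tested, and its adjusted p was 0.751 (edgeR). Hist1h2be was lower in 3 of 3 mice, as were 18.8% of all genes tested (edgeR adjusted p = 0.804).

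**Figure D2:**
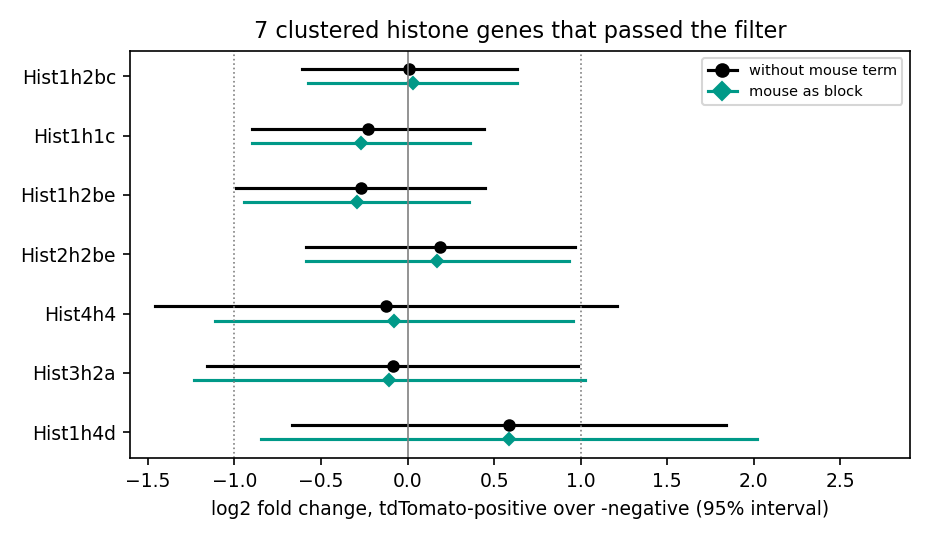
Log2 fold change (horizontal axis, tdTomato-positive over tdTomato-negative) with its 95% interval for the 7 histone genes that passed the filter, from edgeR without a mouse term (black circles) and with the mouse as a block (green diamonds); n = 3 libraries per fraction, and dotted lines mark log2 values of -1 and 1. All intervals include 0, and the widest, that of Hist1h4d with the block, runs from -0.85 to 2.02.

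The summed level of the family had nearly the same mean in both fractions. It was 86.2, 99.4 and 71.4 CPM in the negative fraction of mice 1, 2 and 3 and 86.0, 83.9 and 84.1 CPM in the positive ones, or 85.6 ± 14.0 against 84.6 ± 1.16 (SD, n = 3 each). Within mice the log2 ratio was -0.004, -0.25 and 0.24, with a mean of -0.004 ± 0.24 (SD, n = 3). The positive values therefore lay inside the range of the negative ones, with mouse 2 lower and mouse 3 higher in the positive fraction. With library size as the only scaling, the log2 ratio of the group means moved from -0.02 to 0.25, where the median of all genes moved from 0.03 to 0.29. In bulk samples fewer cells of a type and less RNA per cell cannot be told apart.

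H2B genes made up most of the sum, at 48.6 ± 10.6 CPM in the negative fraction against 48.1 ± 1.24 CPM in the positive fraction (SD, n = 3 each). Linker histone H1 followed at 22.5 ± 2.42 against 20.5 ± 5.38 CPM, most of it Hist1h1c. H4 was at 8.47 ± 3.75 against 9.46 ± 3.03 CPM, H2A at 4.30 ± 0.654 against 4.36 ± 1.17 CPM and H3 at 1.80 ± 0.395 against 2.22 ± 0.840 CPM. The fractions overlapped in all 5 classes. A nucleosome holds its core histones in equal numbers, while the reads assigned here fell 56.8% on H2B and 2.37% on H3. The reads measure RNA, not protein, and histone genes outside the clusters are not part of these sums. The share of sequence held in common with other genes differed between the classes, and its part in these proportions was not tested.

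**Figure D3:**
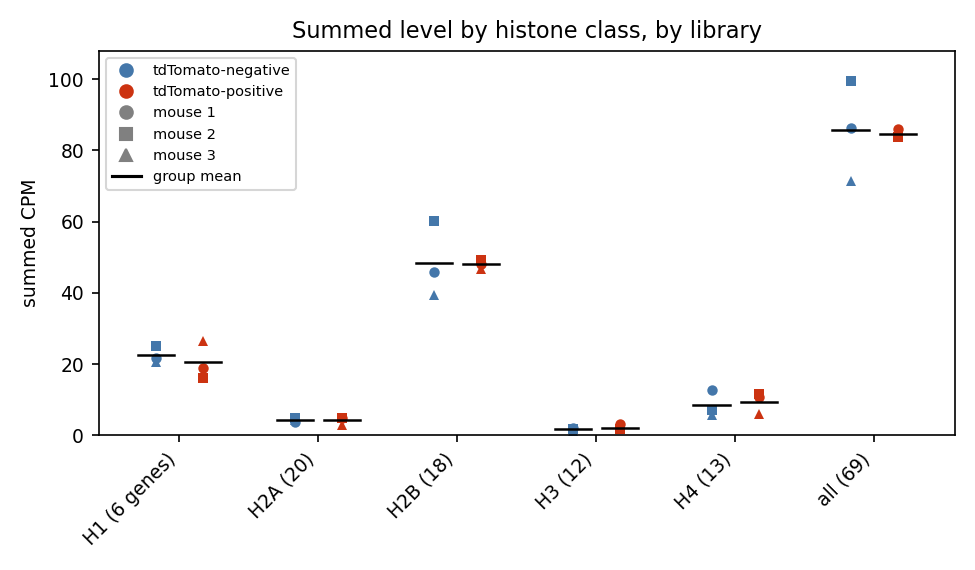
Summed CPM (vertical axis) of the genes of each histone class and of all 69 genes in each library; blue marks tdTomato-negative and red tdTomato-positive libraries, the shape gives the mouse and bars are group means (n = 3). The overall sums run from 71.4 to 99.4 CPM in the negative fraction and from 83.9 to 86.0 CPM in the positive one, and H2B exceeds each other class in every library.

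A list of 5 clustered histone genes known to give polyadenylated mRNA outside S phase, Hist1h1c, Hist1h2bc, Hist2h2be, Hist3h2a and Hist4h4, was set against the other 64. The list was chosen with earlier results of these data known, and all its genes are among the 6 most abundant. Its share of the reads is therefore no test of the list. The 5 genes held 70.8% of the histone reads, 67.8% to 73.9% by library. Their sum was 61.3, 72.1 and 51.0 CPM in the negative fraction against 58.3, 57.3 and 62.1 CPM in the positive fraction. The other 64 genes together reached 24.9, 27.3 and 20.4 CPM in the negative fraction against 27.7, 26.6 and 22.0 CPM in the positive fraction. Hist1h2be was the larger share of that in each library but the positive one of mouse 1. Neither sum separated the fractions.

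The 63 genes outside the 6 most abundant summed to 9.64, 7.84 and 6.98 CPM in the negative fraction against 17.8, 8.65 and 9.96 CPM in the positive fraction. The positive library of mouse 1, the outlying one on principal component 1, was the highest. Hist1h1e, which encodes the linker histone H1.4, had 32 reads there against 3 to 12 in the other libraries. Hist1h2bp had 11 against at most 1, and the annotated pseudogene Hist1h2al 7 against at most 1. Hist1h2bp and Hist1h2al were named after their values were seen. Within mice 1, 2 and 3 the log2 ratio of the 63 genes, positive over negative, was 0.88, 0.14 and 0.51. With the positive library of mouse 1 left out and its negative partner kept, the positive mean of the 63 genes fell from 12.1 to 9.30 CPM. The log2 ratio to the negative mean of 8.15 CPM then moved from 0.57 to 0.19. This step was not planned beforehand. Hist1h1t, the testis-enriched H1 gene, had 3, 7 and 2 reads in negative and 0, 1 and 11 reads in positive libraries. The other testis-enriched genes listed, Hist1h2aa and Hist1h2ba, had none.

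Copies of a histone gene resemble each other, and reads that align to several places were not assigned to genes. Such reads were 8.26% to 12.03% of all counts, summary rows included. To show how much of each gene can be told apart, the transcripts were divided into windows of 100 bases, and windows found in no other annotated gene were counted. The 7 tested genes had 70.2% to 100% of such windows, with a median of 94.9%. For the 29 genes with no read the median was 23.8%, and for the 33 with reads that were not tested 67.2%. By class the medians were 99.6% for H1, 81.0% for H4, 63.5% for H2B, 50.2% for H3 and 30.1% for H2A. A lack of reads for a gene such as Hist2h2aa1, which had no window of its own, therefore does not measure its level. A window also counted as shared where another annotated gene overlapped at the same place. The exons of all 5 genes without a window of their own, Hist2h2aa1 among them, were fully overlapped in this way.

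Other genes shared less of their sequence at this window length and still had few reads. Of 28 genes with at least 70% of their windows to themselves, 8 had no read. With windows of 50 bases the median share of these 28 was 77.05%, and it was lowest in Hist1h2al at 32.4%. Of the same 28, the 13 with an annotated transcript of at least 1000 bases held 94.2% of all histone reads and the 15 with shorter transcripts 2.03%. Over all 69 genes, the 18 with such a long transcript held 95.6% of the reads, on 15 of them. Among the long ones, Hist1h1d, annotated with a transcript of 7425 bases of which 99.2% of windows were its own, had 5 reads, and Hist1h3d, at 1249 bases and 79.6%, had none. The boundaries of 70% and 1000 bases were chosen after the values were seen. In the tested genes that hold the stem-loop, the annotated transcript runs on past it, by 770 bases in Hist1h4d, 840 in Hist1h1c, 1643 in Hist3h2a, 1861 in Hist1h2be and 2445 in Hist4h4. In untested genes with the stem-loop this length ran from 3 bases, as in Hist1h4m, to 4884 in Hist1h1d. It was 2010 bases in Hist1h2ac, which had 4 reads, and 752 in Hist1h3d. A long annotated end was thus not particular to the tested genes. Whether the reads lie before or after the stem-loop cannot be seen in counts per gene.

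**Figure D4:**
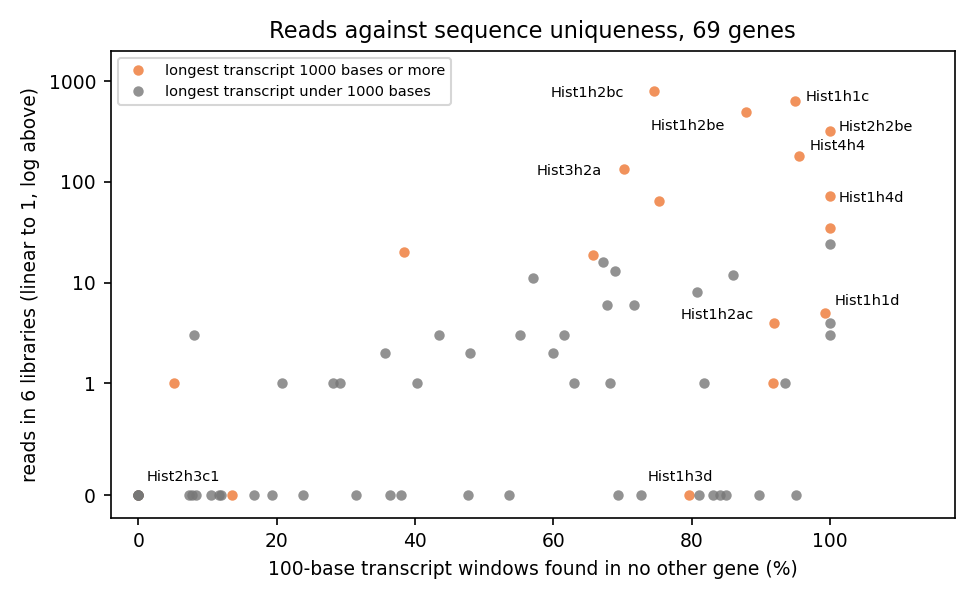
Reads summed over the 6 libraries (vertical axis, linear up to 1 and logarithmic above) against the percentage of 100-base transcript windows found in no other annotated gene (horizontal axis), 1 point for each of the 69 genes; orange marks genes with an annotated transcript of at least 1000 bases and grey those with shorter ones. The 7 tested genes are all orange and lie at 70.2% or above, while points with no read extend from 0% to 95.1%.

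Many H2A and H2B genes stand back to back and share the DNA between their start sites. GENCODE M21 gave 13 such H2A and H2B pairs among the family, 175 to 305 bases apart. The H2B partners held 1137 reads, most of them on Hist1h2bc and Hist2h2be, and the H2A partners 4. In the other pairs no H2B partner had more than the 13 reads of Hist1h2bp. The H2A partner of Hist1h2bm is the annotated pseudogene Hist1h2aj. Hist1h2bc had 795 reads in the 6 libraries and Hist1h2ac, 250 bases away on the other strand, had 4. Of the windows of Hist1h2ac, 91.9% were its own. Of the 2482 bases of its annotated transcript, 2010 lie after the stem-loop, and an mRNA that ends there lacks them. Hist2h2be had 319 reads and Hist2h2ac, 238 bases away, had none, with 83.1% of its windows its own. Exons of all 20 H2A genes overlap another annotated gene, over 9.9% to 100% of their length with a median of 33.0%. Reads that the authors' counting set aside as ambiguous between genes made up 1.31% to 1.697% of all counts in negative and 1.91% to 1.99% in positive libraries. The part of these reads in the pair differences was not tested.

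Promoter sequences (250 bases before to 50 after the start, RefSeq, GRCm38.p6) were matched by symbol or synonym for 61 of the 69 genes. The promoter matched to Hist1h2ap (chr13:21810117-21810416, plus strand) lies before the start of Hist1h2ao. GENCODE M21 places Hist1h2ap elsewhere, at 21833026 to 21833507 on the minus strand. That promoter is still counted below among those of the H2A genes. The elements searched were the CCAAT box, the TATA box (as TATAAA) and the octamer ATTTGCAT, which binds OCT1 and is known from H2B promoters. Both strands were read, and a match is a description of the letters alone. CCAAT was in 85.2% of the histone genes and 41.1% of all genes, TATAAA in 57.4% and 15.7%, and ATTTGCAT in 23.0% and 1.97%. The octamer was found in 7 of 17 H2A, 7 of 16 H2B and 0 of 28 other histone genes; partners of a divergent pair share sequence here, so their matches are not independent. Of the 5 tested genes with a promoter in the table, CCAAT was in 4, TATAAA in 1 and ATTTGCAT in 2. Hist3h2a (chr11:58954435-58954734, plus strand) and Hist1h2bb (chr13:23746484-23746783, plus strand) are shown because both hold the octamer while Hist3h2a had 134 reads and Hist1h2bb 16. Capitals mark matches to the 3 elements on either strand.
Hist3h2a: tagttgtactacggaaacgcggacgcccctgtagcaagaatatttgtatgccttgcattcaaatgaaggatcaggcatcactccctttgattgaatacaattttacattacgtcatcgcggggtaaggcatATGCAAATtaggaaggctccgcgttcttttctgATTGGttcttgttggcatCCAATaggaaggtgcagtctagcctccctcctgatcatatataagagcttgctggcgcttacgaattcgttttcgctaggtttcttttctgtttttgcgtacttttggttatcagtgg
Hist1h2bb: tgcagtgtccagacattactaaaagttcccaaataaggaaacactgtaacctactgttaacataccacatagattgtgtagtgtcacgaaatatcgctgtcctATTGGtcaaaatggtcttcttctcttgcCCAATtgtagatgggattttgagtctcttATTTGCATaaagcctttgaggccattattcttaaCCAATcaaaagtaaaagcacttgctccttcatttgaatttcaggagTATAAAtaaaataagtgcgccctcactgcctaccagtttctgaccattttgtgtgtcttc
Hist1h2bb held all 3 elements and Hist3h2a held CCAAT and the octamer only. Hist1h2bb, chosen after its values were seen, had 0, 2 and 1 reads in negative and 5, 3 and 5 in positive libraries, too few for the filter.

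None of the tested genes listed as acting on histone mRNA was called. Of 15 genes listed for 3′ end formation and turnover, 13 were tested and none was called, with or without the block; their median log2 fold change was 0.12. Slbp, the stem-loop binding protein, was at 25.6 ± 4.62 CPM in the negative fraction against 28.2 ± 2.79 CPM in the positive fraction (SD of 3; adjusted p = 0.87 by edgeR). Casp8ap2, which encodes the processing factor FLASH, was at 57.2 ± 8.88 and 39.3 ± 7.92 CPM (edgeR adjusted p = 0.424), Sympk had a log2 fold change of 0.48 (adjusted p = 0.564, edgeR) and Srrt of 0.39 (adjusted p = 0.57, edgeR). Of 7 genes for transcription at the histone locus and entry into S phase, 5 were tested and none was called (median -0.32). Npat, the coactivator of histone gene transcription, was at 44.4 ± 2.75 and 38.8 ± 2.82 CPM (SD of 3; adjusted p = 0.76 by edgeR). Cdk2 had a log2 fold change of -1.26 (adjusted p = 0.543, edgeR) and Ccne2 of -0.45 (adjusted p = 0.719, edgeR). Ccne1, a cyclin E gene, had no read.

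Of 11 listed genes for histone variants outside the clustered family, 9 were tested and none was called. Their median log2 fold change was 0.42, with 8 of them above 0 (88.9%, beside 52.7% of all genes tested). With the block the median was 0.30. H3f3b, which encodes histone H3.3, was at 247 ± 9.19 CPM in the negative fraction against 267 ± 84.5 CPM in the positive fraction (SD of 3; adjusted p = 0.887 by edgeR). H2afy2, a macroH2A gene, had a log2 fold change of 0.98 (adjusted p = 0.492, edgeR), H2afv of 0.68 (adjusted p = 0.537, edgeR) and H3f3a of 0.47 (adjusted p = 0.584, edgeR). Of 16 histone chaperone genes, 14 were tested, none was called without the block and 1 was lower with it, against 1.79% of all genes. That gene was Atrx, an ATPase that places H3.3 together with Daxx, at 520 ± 55.0 against 349 ± 69.9 CPM (SD, n = 3 each). Its log2 fold change was -0.57 (edgeR adjusted p = 0.272, and 0.0246 with the mouse as a block). Ipo4 and Cabin1 were not called (edgeR adjusted p = 0.577 and 0.679).

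Of 22 listed genes of S phase and proliferation, 14 were tested, with a median log2 fold change of 0.13. None was called without the block and 1 was lower with it, against 1.79% of all genes tested. That gene was Top2a, a DNA topoisomerase of dividing cells, at 8.14 ± 3.73 CPM in the negative fraction against 1.01 ± 0.628 CPM in the positive fraction (SD of 3; adjusted p = 0.0643 by edgeR, and 0.00917 with the block). Mki67, which encodes the proliferation marker Ki-67, was at 11.4 ± 9.36 and 1.65 ± 0.787 CPM (edgeR adjusted p = 0.188), and Mcm7 had a log2 fold change of 0.82 (adjusted p = 0.569, edgeR). The summed level of the list overlapped between the fractions, at 124 to 149 CPM in the negative fraction against 106 to 138 CPM in the positive fraction.

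Markers of some other cell types differed between the fractions. Of 12 alveolar type 2 markers tested, 7 fell and none rose, against 0.577% and 0.0455% of all genes tested. The sum of the 12 was 6711 to 8073 CPM in the negative fraction against 591 to 1156 CPM in the positive fraction. Leukocyte markers summed to 179 to 1298 CPM in the negative fraction against 37.6 to 221 CPM in the positive fraction. None of 5 tested was called without the block and 2 fell with it, against 1.79% of all genes tested. Club cell markers summed to 4819 to 8155 CPM and 8649 to 21575 CPM. None of 7 tested was called without the block and 6 rose with it, against 1.36% of all genes tested. The basal cell marker Trp63 fell, the 1 of 4 tested, and basal cell markers summed to 7.52 to 14.0 CPM and 0 to 0.787 CPM, mesenchymal markers to 17.3 to 64.0 and 1.58 to 32.7 CPM, and endothelial markers to 11.8 to 17.9 and 12.01 to 28.0 CPM. The part of these cells in the histone reads was not tested.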

How the data were processed

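The deposited tables hold unnormalised read counts for each gene in 3 tdTomato-negative and 3 tdTomato-positive libraries of 3 mice. Aligner and trimmer, per the submitters' processing notes, were STAR 2.4.2a and cutadapt 1.7.1, with HTSeq as counter and GRCm38.p4 (mm10) as genome; FastQC and DESeq2 are listed too. HTSeq's version, strand setting and annotation are not given in the sources used here. Per the labels' protocols, the Ovation RNA-Seq System V2 amplified the RNA. The 5 HTSeq summary rows entered neither library totals nor tests.

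edgeR 4.0.16 (R 4.3.3; TMM, quasi-likelihood, robust, two-sided, no mouse term) was run on genes passing filterByExpr (count minimum 10), with Benjamini-Hochberg adjustment over all of them. SE was the log2 fold change over the square root of F. Both libraries of a number come from 1 mouse per the labels, so the numbers pair the samples; deviations from group means correlated within mice at 0.268, 0.254 and 0.348. Alternatives were the mouse as a block, other scalings and filters, DESeq2 1.42.0, limma-voom 3.58.1, and leaving out libraries or mice. Fits were tested on simulated data.

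Named were the 12 histone genes with the highest mean CPM, those called, the 5 largest rises and falls, and from other lists those called and up to 3 with the smallest p. Members and lists were chosen with earlier results of these data known.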

Additional observations from a re-analysis of the deposited data

How the results depend on the processing

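In none of the 20 alternatives was a clustered histone gene called, higher or lower; the smallest adjusted p over the alternatives for the 7 tested genes was 0.483 (edgeR, Hist1h4d with library-size scaling). The median log2 fold change of the histone genes tested, -0.086, was 0.184 with library size only, 0.202 with no filter (40 genes tested) and 0.068 with the replicate block without mouse 3; it was -0.118 to 0.183 when 1 library or mouse was left out, with the upper end reached without the positive library of mouse 3. The log2 ratio of the summed level, -0.017, was 0.249 with library size only and -0.137 to 0.111 when 1 library or mouse was left out. With library size only, which moved the median of all genes from 0.029 to 0.286, the direction turned for Hist1h1c (0.046), Hist1h2be (0.01), Hist3h2a (0.184) and Hist4h4 (0.106). With the replicate block the direction of each tested gene was that of the main model and no call changed; without mouse 1 it turned for Hist1h2bc (-0.092) and Hist4h4 (0.257), and without mouse 3 for Hist1h2bc (-0.234), Hist3h2a (0.128) and Hist4h4 (0.007). Leaving out 1 library or mouse without the block gave log2 fold changes of -0.24 to 0.385 for Hist1h2bc, -0.303 to 0.116 for Hist3h2a and -0.583 to 0.584 for Hist4h4, so their directions are not determined by these data; the cause was not tested. Hist1h4d and Hist2h2be stayed above 0 in all 20. The other 62 of the 69 genes had too few assigned reads to be tested at this depth. Of these, 5 had no window of their own, and the parts of depth, level, shared sequence and overlapping annotation were not tested. Over all genes, edgeR called 82 (6 higher, 76 lower), and 76 (22 higher, 54 lower) with library size only; it called 415 (179 and 236) with the mouse as a block, 413 (167 and 246) with no filter and 22 to 113 when 1 library or mouse was left out without the block, and DESeq2 called 245 (56 and 189).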
